A study of Homo sapiens with 8 samples.

Results

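SNORA73A and SNORA73B are near-identical small nucleolar RNAs (snoRNAs) of the H/ACA class, and SNHG3 is the long noncoding RNA gene whose introns carry them. Their contacts with dyskerin and GAR1 were examined in 8 iCLIP libraries from nuclei of U2OS cells, a human osteosarcoma line that is unmodified in these experiments. The libraries fell into 4 groups of 2 replicates: dyskerin, GAR1, and a set of mouse immunoglobulin (IgG) controls labelled for each of these antibodies. All cells were crosslinked with 1500 J/m2 of ultraviolet light at 254 nm, and the GAR1 antibody, unlike the IgG, comes from rabbit, so that the IgG controls were not matched to it in species. In iCLIP, a reverse transcriptase that meets the crosslink often stops there, and each significant site carries a count of cDNAs, that is, of distinct molecules whose copy ended next to it. Members were the strand-matched sites inside the GENCODE 44 genes SNORA73A and SNORA73B, each with the 5 nt upstream of its annotated start, and in the rest of SNHG3. They numbered 2417 of 2006603 sites over all libraries. Of these, 1077 lay in SNORA73A, 1115 in SNORA73B and 225 in the rest of SNHG3, at 196, 193 and 118 distinct positions.

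H/ACA snoRNAs fold into a pair of hairpins, with the H box in the hinge between them and the trinucleotide ACA near the 3′ end, and each is bound by dyskerin, GAR1, NHP2 and NOP10. Most of them guide the pseudouridylation of a uridine in ribosomal RNA, with dyskerin as the enzyme. SNORA73A and SNORA73B, also called U17a and U17b, are known instead for a part in the early cleavages of the ribosomal RNA precursor that release the RNA of the small ribosomal subunit, and short elements of their 3′ hairpin (m1 and m2) are thought to pair with that RNA. SNHG3 serves as the host from whose introns both are cut, and little protein is thought to be made from its spliced RNA.

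Both sequences are shown, from the GRCh38 genome at the GENCODE coordinates chr1:28507366-28507571 (SNORA73A, ENSG00000274266.1) and chr1:28508559-28508762 (SNORA73B, ENSG00000200087.1), plus strand, because they set how far reads can be told apart. Capitals mark the bases that differ between the copies.
SNORA73A: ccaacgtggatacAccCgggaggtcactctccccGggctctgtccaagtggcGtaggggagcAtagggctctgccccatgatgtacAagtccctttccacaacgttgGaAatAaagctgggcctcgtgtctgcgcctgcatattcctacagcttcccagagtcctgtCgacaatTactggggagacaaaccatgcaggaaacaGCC
SNORA73B: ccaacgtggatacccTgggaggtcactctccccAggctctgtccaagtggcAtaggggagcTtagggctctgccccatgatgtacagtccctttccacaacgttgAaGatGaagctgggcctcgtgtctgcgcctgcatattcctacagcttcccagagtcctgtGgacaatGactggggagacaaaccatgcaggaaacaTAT

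The RNAs are 206 and 204 nt long and were identical in 192 of 206 aligned columns (93.2%), with 12 substitutions and 2 bases of SNORA73A that SNORA73B lacks. The substitutions G108A, A110G and A113G (SNORA73A base first, counted from its 5′ end) fell in or next to the hinge, where the H box motif ANANNA matched, on the sense strand, at nucleotides 109 to 114 of SNORA73A and 107 to 112 of SNORA73B. The longest stretch without a difference ran over 54 nt, from nucleotide 114 to 167 of SNORA73A, and covered the m1 element. Reads that map to both copies were kept by the authors and could be counted at each. At positions whose next 25 nt are the same in both copies, where a read of that length cannot be placed, SNORA73A held 1.45% to 4.56% of its cDNAs and SNORA73B 0.888% to 7.48%. With a window of 40 nt the highest share was 1.72%, and with a window of 15 nt the shares ran from 24.2% to 54.9%. The authors kept reads of 10 nt and longer, and read lengths are not recorded in the site lists, so the true share of ambiguous cDNAs is unknown. If all reads at a position were counted at both copies, the counts at aligned positions would be equal. Equal counts were found at 5 to 16 of the 28 to 193 aligned positions with cDNAs in both, and at 0 to 3 of those within shared windows of 25 nt. Unequal counts can still include reads counted at both copies, so these numbers do not measure the share of ambiguous cDNAs. Elsewhere in the genome, 7 related copies of 81 to 208 nt, with 81.8% to 86.6% identity over the aligned stretch, held together at most 1.40% as many cDNAs as the pair.

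Summed over significant sites, the dyskerin libraries held 1693951 and 1875459 cDNAs and the GAR1 libraries 585454 and 1976518. The sums were 146514 and 8183 for the IgG of the dyskerin set, and 295255 and 10701 for the IgG of the GAR1 set. Only sites that passed in a library enter these sums, which are not sequencing depths. The IgG libraries did not behave as empty controls. H/ACA snoRNAs held 12.4% and 15.6% of the cDNAs in the dyskerin libraries and 77.4% and 74.6% for GAR1. They held 16.1% and 58.1% in the IgG of the dyskerin set, and 79.9% and 74.9% in the IgG of the GAR1 set. In this share, 3 of the 4 IgG libraries came close to the antibody they were labelled for. The origin of this likeness was not tested. Of 6 mesenchymal and bone markers, 5 had a site. Their summed level ran from 0 to 1849 CPM (cDNAs scaled to a common total of peak cDNAs) in the antibody libraries and from 0 to 437 CPM in the IgG libraries, with 0 in 4 libraries. None of 3 blood markers had a site. Of 3 epithelial markers 2 had one, at up to 2.53 CPM in the antibody libraries, and CDH1 reached 374 CPM in replicate 2 of the GAR1 IgG set. The nuclear RNAs MALAT1 and NEAT1 had sites in all 8 libraries. MALAT1 stood at 91698 and 81510 CPM in the dyskerin IgG set against 41857 and 44633 CPM with dyskerin. In the GAR1 IgG set it stood at 3810 and 13457 CPM, against 4578 and 3332 CPM with GAR1. Likeness in the H/ACA share was thus not likeness in all RNAs.

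With dyskerin, SNORA73A held 11740 and 13536 cDNAs, or 0.693% and 0.722% of all peak cDNAs. With GAR1 it held 27043 and 61955, or 4.62% and 3.13%. In the IgG of the dyskerin set it held 891 and 207 cDNAs, or 0.608% and 2.53%, and in the IgG of the GAR1 set 11702 and 510, or 3.96% and 4.77%. Both dyskerin libraries thus lay below both GAR1 libraries, and the values of each antibody overlapped those of its own IgG. SNORA73B had more cDNAs than SNORA73A in all 8 libraries, per kb of RNA as well. It held 15132 and 15391 cDNAs with dyskerin (0.893% and 0.821%) and 31943 and 69011 with GAR1 (5.46% and 3.49%). Its IgG values were 1287 and 338 cDNAs (0.878% and 4.13%) in the dyskerin set and 14292 and 719 (4.84% and 6.72%) in the GAR1 set. For both copies the group means went up from dyskerin over the dyskerin IgG set and GAR1 to the GAR1 IgG set, and of the neighbours in this order none were separated without overlap of their libraries, apart from the dyskerin IgG set and GAR1 for SNORA73A. The 95% Wilson intervals of these shares reached at most 0.490 percentage points to either side, in the smallest libraries, and cover counting error only.

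**Figure D1:**
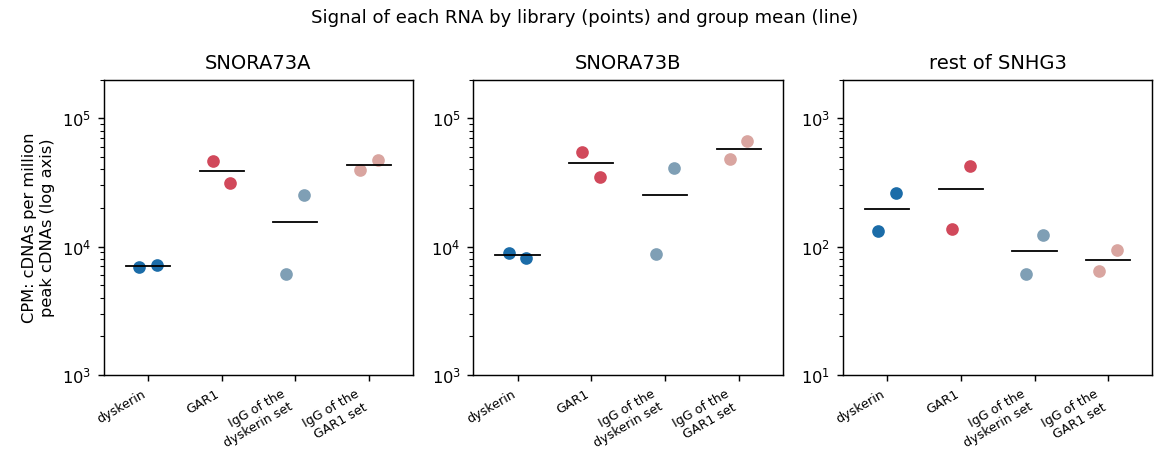
Signal of SNORA73A, SNORA73B and the rest of SNHG3 in each of the 8 libraries, as CPM on a log axis, with a point per library and a line at the mean of the 2 libraries of a group. For both snoRNAs the dyskerin libraries lie below the GAR1 libraries, and the 2 libraries of the dyskerin IgG set lie far apart.

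Together the pair took 1.56% ± 0.0311 (SD, n = 2) of the peak cDNAs for dyskerin and 8.35% ± 2.44 (SD, n = 2) for GAR1, against 4.07% ± 3.66 and 10.1% ± 1.90 (SD, n = 2 each) in their IgG sets. Within the H/ACA class the picture was flatter. SNORA73A held 5.59% and 4.63% of all H/ACA cDNAs for dyskerin, 5.97% and 4.20% for GAR1, 3.78% and 4.35% in the dyskerin IgG set and 4.96% and 6.36% in the GAR1 IgG set. SNORA73B held 7.20% and 5.27% for dyskerin and 7.05% and 4.68% for GAR1, and 5.47%, 7.10%, 6.06% and 8.97% in the IgG libraries in the same order. For both copies the values of dyskerin and GAR1 overlapped on this scale. Among the 93 to 143 H/ACA snoRNAs with a site in a library, SNORA73B ranked 2 in 7 libraries and 3 in the other, and SNORA73A ranked 3 in 6 libraries and 5 in both libraries of the dyskerin IgG set. Among all genes, SNORA73B ranked 4 in both dyskerin libraries and 2 in both GAR1 libraries. It ranked 8 and 3 in the dyskerin IgG set and 2 in both libraries of the GAR1 IgG set.

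Whether the RNAs take a different part of the signal of the 2 proteins was asked with edgeR's quasi-likelihood test over 6448 genes. SNORA73A and SNORA73B were lower in dyskerin than in GAR1, with log2 fold changes of -5.93 ± 1.06 (SE, adjusted p = 4.84e-05) and -5.83 ± 1.03 (SE, adjusted p = 4.36e-05). In this comparison 1.66% of all genes tested were called lower and 0 were called higher. The fold depends strongly on the scaling, because the TMM factors ran from 0.0705 in GAR1 replicate 2 to 4.12 in a dyskerin IgG library, and the median of all genes stood at 5.55. On totals of peak cDNAs the values were -2.43 ± 0.63 (adjusted p = 0.000305) and -2.36 ± 0.59 (adjusted p = 0.000209), with the median of all genes at 6.58. Under this scaling 6015 of 6448 genes were called, 5847 of them higher and 168 lower. With DESeq2 the call was lost, at -0.38 ± 1.22 (adjusted p = 0.783) and -0.30 ± 1.26 (adjusted p = 0.833), with a median of 8.58. Relative to the median of all genes, SNORA73A stood at -11.48, -9.01 and -8.96 and SNORA73B at -11.38, -8.94 and -8.88 under the 3 scalings. The call was also lost when either dyskerin library was left out (adjusted p = 0.187 and 0.173 for SNORA73A, 0.184 and 0.176 for SNORA73B). Without regard to scaling models, both dyskerin libraries lay below both GAR1 libraries in share of peak cDNAs for SNORA73A and for SNORA73B, as they did for 6.28% of all genes tested, while 91.6% lay the other way, with both dyskerin libraries higher.

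Neither antibody was shown to enrich the pair over its IgG in scaled counts. The scaling removes differences between libraries in the yield of cDNAs. The tests therefore cannot decide on enrichment of RNAs that also made up much of the IgG libraries. For dyskerin against its IgG the log2 fold changes were -0.24 ± 0.86 (SE, adjusted p = 0.948) for SNORA73A and -0.59 ± 0.84 (SE, adjusted p = 0.799) for SNORA73B. No gene was called by edgeR in this comparison. Without adjustment, 1410 genes passed 0.05 as higher and 9 as lower, and DESeq2 likewise called 0. For GAR1 against its IgG the values were 3.87 ± 0.96 (SE, adjusted p = 0.108) and 3.68 ± 0.93 (SE, adjusted p = 0.108). Here edgeR called 0 genes, with 1021 higher and 5 lower unadjusted, and DESeq2 called 128. On totals of peak cDNAs the sign turned, to -0.18 ± 0.60 and -0.38 ± 0.57, and it turned as well without either dyskerin library, so no direction can be given. Without GAR1 replicate 1 the edgeR test called both higher, at 4.44 and 4.23 (adjusted p = 8.65e-12 and 7.29e-12), among 733 of 6418 genes called, all of them higher. The difference between the 2 comparisons, dyskerin over its IgG against GAR1 over its IgG, was -4.11 ± 1.26 for SNORA73A and -4.28 ± 1.23 for SNORA73B (SE, adjusted p = 0.677 for both) and was not called either. In that test edgeR called 0 genes, 162 were higher and 216 lower unadjusted, and DESeq2 called 87. Without GAR1 replicate 1 it was called, at -4.68 and -4.82 (adjusted p = 1.51e-07 and 7.47e-09), among 93 genes, all lower.

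Other RNAs of the same pathway were set beside the pair. In dyskerin against GAR1, 1.66% of all genes tested were called lower and 0 higher, the share to set beside each list. Of the 125 other H/ACA snoRNAs tested, 85 were called lower in dyskerin than in GAR1 and none higher. These 125 had a median log2 fold change of -6.27, close to the pair. The most abundant of them, SNORA81, stood at -5.95 ± 0.96 (SE, adjusted p = 4.60e-06) and SNORA63 at -5.79 ± 1.11 (SE, adjusted p = 0.000180). All 14 other RNAs with a part in processing of the ribosomal RNA precursor were tested, and none was called in any comparison, with a median of -4.86 for dyskerin against GAR1. SNORD3A, a gene for U3, gave -2.39 ± 1.37 (SE, adjusted p = 0.128), and SNORD22 gave -5.46 ± 1.77 (SE, adjusted p = 0.0503). In CPM, SNORD3A went the other way, with 5295 and 6438 for dyskerin against 1349 and 2711 for GAR1. SNORD22 was lower in dyskerin in CPM too, with 690 and 551 against 2335 and 2136. Of 16 other snoRNA host genes, 9 could be tested and 1 was called lower in dyskerin than in GAR1, namely GAS5 (-5.25 ± 1.23, SE, adjusted p = 0.00288). SNHG5 gave -5.44 ± 1.87 (SE, adjusted p = 0.0503). Of the mRNAs of 6 H/ACA proteins, 2 could be tested and none was called. The mRNA of dyskerin itself (DKC1) had 53.1 and 60.3 CPM with dyskerin, 27.3 CPM in 1 dyskerin IgG library and no site elsewhere. SHQ1, an assembly factor of the complex, had 10.6 and 10.1 CPM with dyskerin and no site in other libraries. Over the 8 libraries, log2(CPM + 1) of SNORA73A ran most like that of SNORA6 (r = 0.995), SNORA16A (r = 0.995) and SNORA62 (r = 0.993), and that of SNORA73B most like SNORA16A (r = 0.983), SNORA13 (r = 0.977) and SNORA63 (r = 0.976). All of these are H/ACA snoRNAs, and the values share the library and its composition.

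Along both RNAs the cDNAs were gathered at a few places. Positions are counted from the annotated first nucleotide, and the nucleotide before it is -1. A site marks the nucleotide before the start of a cDNA, so a cDNA that starts at the first nucleotide gives a site at -1. The strongest site of SNORA73A was at -2 in both dyskerin libraries (12.2% and 13.1% of its cDNAs) and in both GAR1 libraries (7.11% and 3.61%). A site at -2 belongs to cDNAs that start 1 nt upstream of the GENCODE start, and whether the RNAs themselves start there was not tested. A cDNA copied to the very end of an RNA and one stopped by a crosslink there give the same site, and the site lists do not separate them. The 5 nt upstream of SNORA73A held 21.3% and 25.1% of its cDNAs for dyskerin, 13.7% and 12.4% for GAR1, 7.63% and 29.5% in the dyskerin IgG set and 11.4% and 27.6% in the GAR1 IgG set. The dyskerin libraries lay above the GAR1 libraries, and the IgG libraries spread over the whole range. Inside the RNA, the strongest sites were at nucleotides 89, 147 and 166 in the dyskerin libraries. They held on average 7.53%, 6.76% and 6.47% for dyskerin, and 4.16%, 4.11% and 4.92% for GAR1. The IgG libraries had cDNAs at the same nucleotides, with means of 10.0%, 11.3% and 7.13% in the dyskerin set and 3.96%, 10.7% and 6.33% in the GAR1 set, above the antibody in all but nucleotide 89 of the GAR1 set.

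**Figure D2:**
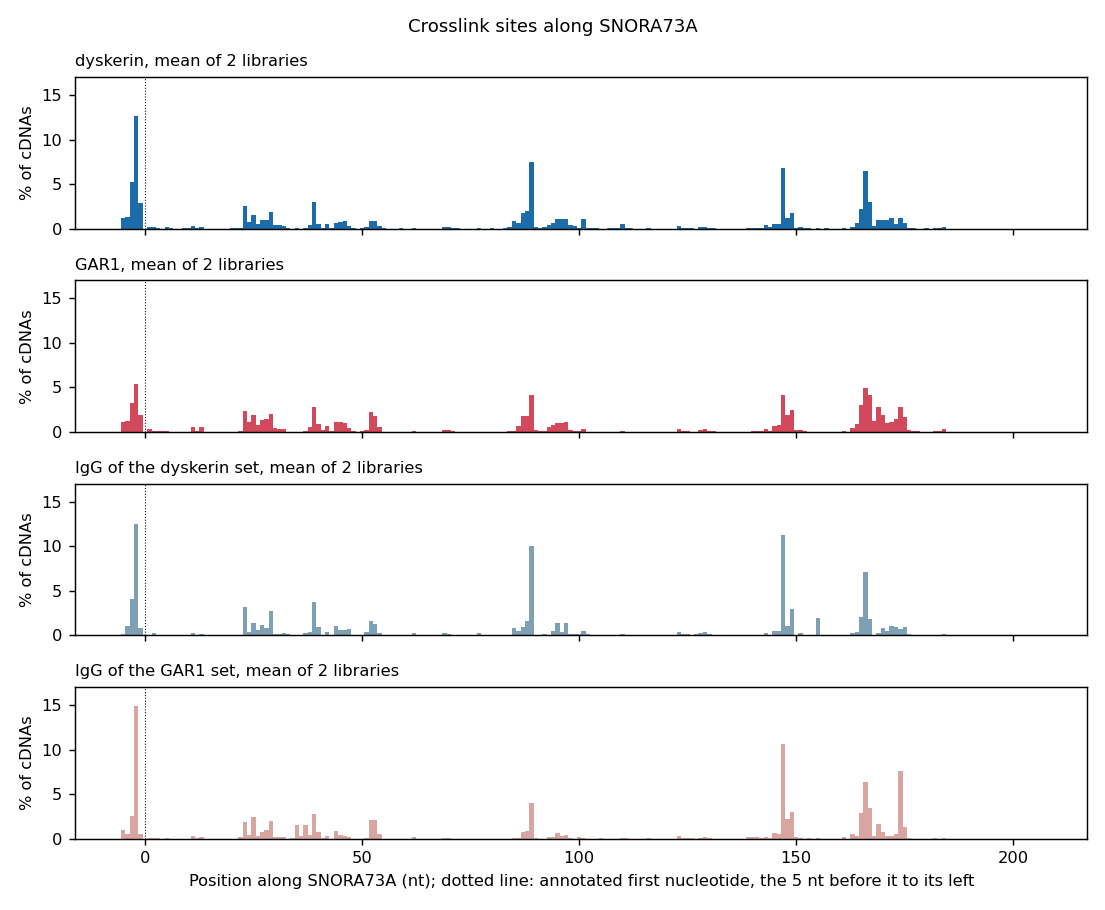
Share of the cDNAs of SNORA73A at each position, as the mean of the 2 libraries of a group, with the position in nt on the x axis and the annotated start at the dotted line. In all 4 groups the signal gathers just upstream of the start, at nucleotides 21 to 60, at 81 to 100, around 147, and at 161 to 180, and none lies in the last 15 nt.

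SNORA73B had its strongest sites at -2 and 145. Nucleotide 145 is the counterpart of nucleotide 147 in SNORA73A, and cDNAs from both have the same first 20 nt but differ within 25 nt. At -2 it held 1772 and 1941 cDNAs in the dyskerin libraries, the highest count of any site in either library. At 145 it held 2666 cDNAs in GAR1 replicate 2, the highest count there as well, and 2042 in GAR1 replicate 1, where it ranked 5. The 5 nt upstream of SNORA73B held 26.8% and 30.4% of its cDNAs for dyskerin and 16.6% and 11.7% for GAR1. In the IgG libraries the share was 14.3% and 39.1% in the dyskerin set and 18.6% and 28.2% in the GAR1 set. As in SNORA73A, dyskerin lay above GAR1 and the IgG libraries overlapped both. GAR1 replicate 2 had the flattest profile. Its highest site anywhere was 1.48 times its hundredth highest, against 2.60 times in GAR1 replicate 1 and 3.97 and 3.49 times in the dyskerin libraries. All IgG libraries lay above these, at 10.2 and 19.7 times in the dyskerin set and 4.26 and 30.9 times in the GAR1 set. The effect of these differences on the profiles, and on antibody and IgG shares at strong sites such as nucleotide 145, was not tested.

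**Figure D3:**
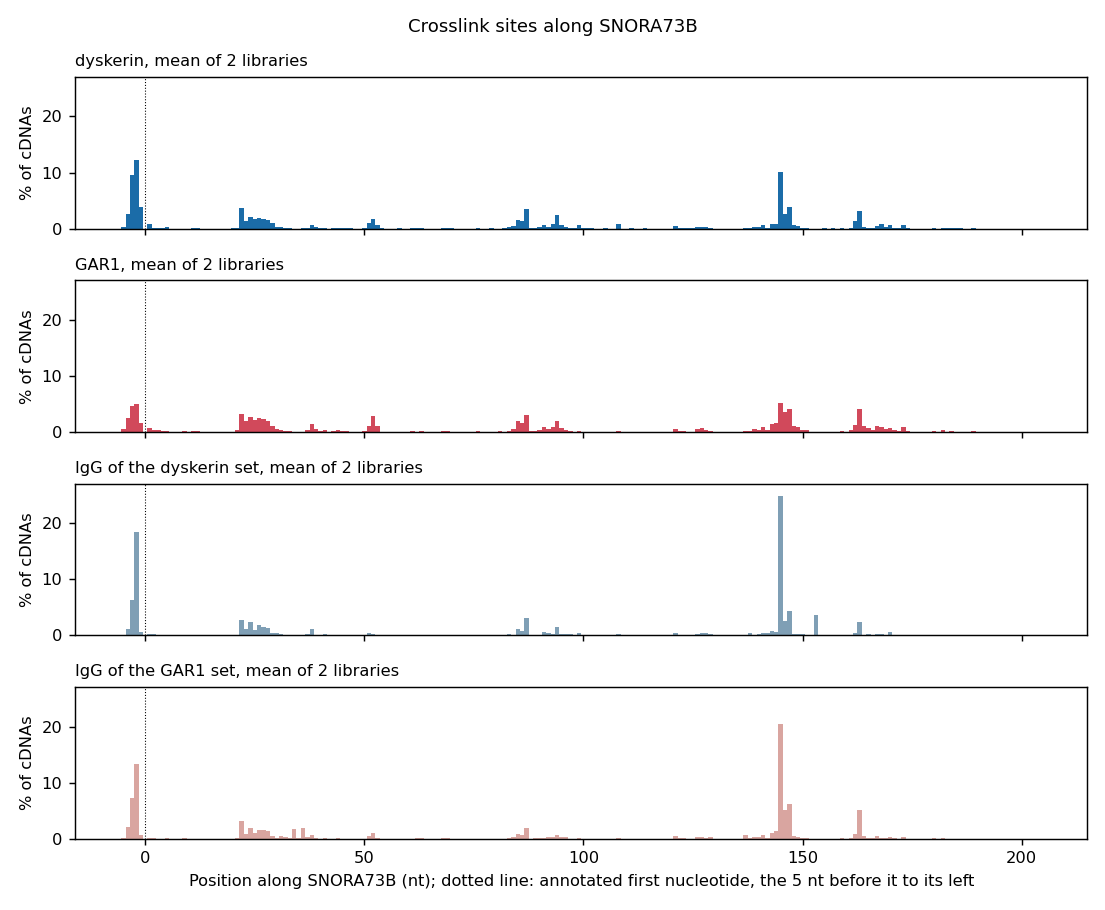
Share of the cDNAs of SNORA73B at each position, as the mean of the 2 libraries of a group, on the same axes as for SNORA73A. The sites just upstream of the start and at nucleotide 145 stand out, and nucleotide 145 holds 10.1% and 5.13% on average for dyskerin and GAR1 against 24.9% and 20.5% in their IgG sets.

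The profiles of replicates agreed to different degrees. Across positions, which are not independent, Pearson's r between the 2 libraries of a group was 0.946 (dyskerin), 0.890 (GAR1), 0.765 (dyskerin IgG) and 0.692 (GAR1 IgG) for SNORA73A. For SNORA73B it was 0.966, 0.920, 0.801 and 0.849. Between dyskerin and GAR1 libraries r ran from 0.790 to 0.910 for SNORA73A, below the dyskerin replicates and overlapping the GAR1 replicates. Antibody profiles were as like some IgG profiles, with r = 0.953 between replicate 2 of dyskerin and of its IgG set and r = 0.906 between replicate 1 of GAR1 and of its IgG set. Over all pairs of an antibody and an IgG library, r ran from 0.578 to 0.953 for SNORA73A and from 0.550 to 0.920 for SNORA73B. Between the 2 copies within a library, at aligned positions, r was 0.717 to 0.892. The sites covered 74.8% to 92.7% of the nucleotides of either RNA in the antibody libraries. The clusters that the authors joined from neighbouring sites covered each snoRNA in 1 piece of 190 to 250 nt in the 6 larger libraries and in 3 pieces in both IgG libraries of replicate number 2. The last site lay 15 to 34 nt before the 3′ end in all libraries, so that no site fell on the ACA box, which ends 3 nt before the end of either RNA. A site this close to the end needs a cDNA that may be too short to map, so the lack of sites there says nothing about contact.

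The m1 element held a larger share in the IgG libraries than in the antibody libraries, mainly at a single nucleotide. Its letters ATATTCCTA occur at nucleotides 140 to 148 of SNORA73A and 138 to 146 of SNORA73B, and in 3 of all 214 annotated H/ACA snoRNAs (1.40%, sense strand). In SNORA73A this stretch held 7.36% and 12.3% of the cDNAs for dyskerin and 7.27% and 9.47% for GAR1, against 14.6%, 12.6%, 14.6% and 14.7% in the 4 IgG libraries. In SNORA73B it held 14.4% and 17.2% for dyskerin and 13.4% and 14.5% for GAR1, against 34.1%, 26.6%, 24.2% and 35.3% for IgG. All 4 IgG libraries lay above all 4 antibody libraries in both RNAs. The comparison of m1 was singled out after the profiles had been seen, and no test is given. Separation without overlap was not particular to m1, and other stretches separated the other way. Nucleotides 91 to 100 held 4.97% to 5.54% with antibody against 2.06% to 4.35% with IgG in SNORA73A. In SNORA73B they held 5.59% to 6.70% against 1.95% to 5.52%. How many stretches separated in either direction was not counted. The m2 letters AAACCAT, at nucleotides 187 to 193 and 185 to 191 and in 4 of the 214 (1.87%), held at most 0.336% in any library. The last site of any library lay at nucleotide 191 of SNORA73A and 189 of SNORA73B. Part of m2 thus lay past the last site, near the 3′ end, and its low share says nothing about contact. The H box matches at the hinge held at most 1.36%, with the highest values in dyskerin replicate 2 for both RNAs. Uridine makes up 20.4% of SNORA73A and 22.1% of SNORA73B. It was the base at 30.2% to 50.1% and 29.5% to 51.5%, respectively, of the cDNAs inside the annotated RNA. Those of the 5 nt upstream are left out of these shares.

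**Figure D4:**
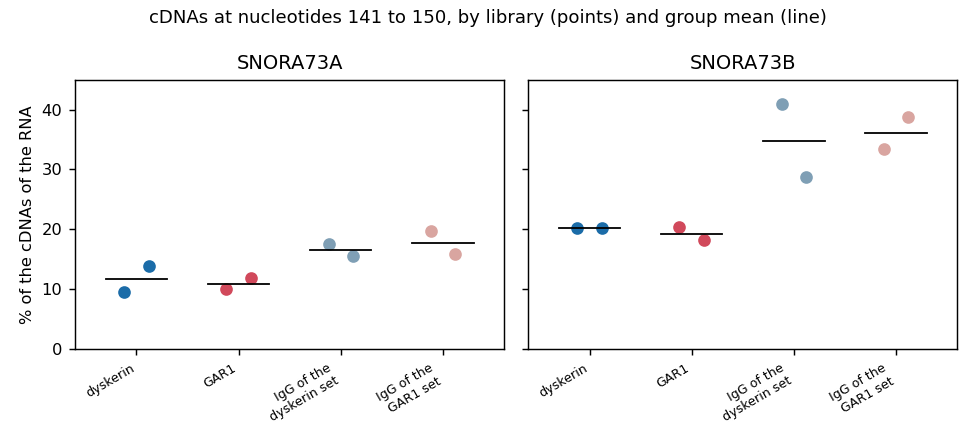
Share of the cDNAs of each snoRNA in the 10 nt that end at nucleotide 150, which hold the strongest site inside SNORA73B, with a point per library and a line at the group mean, on a linear axis from 0. In this bin of 10 nt the antibody libraries lie at 9.43% to 13.9% for SNORA73A and 18.2% to 20.4% for SNORA73B, below the IgG libraries at 15.5% to 19.7% and 28.7% to 40.9%.

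For 7 shares within the locus, the 4 antibody libraries were compared with the 4 IgG libraries by an exact two-sided permutation test, in which the smallest possible p is 0.0286. None passed after adjustment over the 7, which under 0.05 would take at least 5 of them at that smallest p. SNORA73A made up 43.7% and 46.8% of the pair's cDNAs for dyskerin and 45.8% and 47.3% for GAR1, and 40.9%, 38.0%, 45.02% and 41.5% in the IgG libraries. The difference was 4.56 percentage points (exact p = 0.0571, adjusted p = 0.2), and 1 IgG library overlapped the antibody libraries. The share of SNORA73B past its midpoint was 31.3% to 39.4% with antibody and 38.2% to 54.3% with IgG, a difference of -11.5 points (exact p = 0.0857, adjusted p = 0.2) with overlap. That of SNORA73A differed by -3.79 points (exact p = 0.371, adjusted p = 0.64). The first 10% of each RNA with its 5 nt upstream differed by 0.076 points for SNORA73A (exact p = 0.971) and by -2.28 points for SNORA73B (exact p = 0.743, adjusted p = 0.867). Within both IgG sets the 2 replicates lay farther apart on these last shares than the means of antibody and IgG libraries did.

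The rest of SNHG3 (ENSG00000242125.3, chr1:28505980-28510892, plus strand) held far less. It had 226 and 487 cDNAs for dyskerin, 80 and 835 for GAR1, 9 and 1 in the dyskerin IgG set and 19 and 1 in the GAR1 IgG set. As a share of peak cDNAs these were 0.0133% and 0.0260%, 0.0137% and 0.0422%, 0.00614% and 0.0122%, and 0.00644% and 0.00934%. Both replicates of each antibody lay above both of its IgG, as they did for 70.4% of all genes tested for dyskerin and 10.3% for GAR1, and no more than 1 cDNA stands behind either small IgG library. The edgeR test called none of these differences. Log2 fold changes were 1.64 ± 2.24 for dyskerin over IgG (SE, adjusted p = 0.789), 6.44 ± 2.704 for GAR1 over IgG (SE, adjusted p = 0.268) and -4.55 ± 2.43 for dyskerin against GAR1 (SE, adjusted p = 0.101). The difference of the first 2 was -4.79 ± 3.25 (SE, adjusted p = 1). The genes whose CPM ran most like it were SNORD62A (r = 0.893), GPSM1 (r = 0.891) and SNORD116-16 (r = 0.889), less alike than the nearest genes of the snoRNAs. The pair made up 98.8% ± 0.581 (dyskerin), 99.6% ± 0.352 (GAR1), 99.7% ± 0.161 and 99.9% ± 0.00584 (IgG, SD, n = 2 each) of the cDNAs of the whole locus, a difference of -0.627 points between antibody and IgG (exact p = 0.0857, adjusted p = 0.2).

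All host cDNAs of GAR1 lay just upstream of the snoRNAs. The stretch from 50 to 6 nt upstream of SNORA73B held 70 and 196 cDNAs for dyskerin, 62 and 660 for GAR1, 5 and 0 in the dyskerin IgG set and 15 and 0 in the GAR1 IgG set. The same stretch before SNORA73A held 25 and 77, 18 and 175, 1 and 1, and 4 and 1. Those before SNORA73B made up 77.5% and 79.0% of the host cDNAs of GAR1, and those before SNORA73A the other 22.5% and 21.0%. The 50 nt before each snoRNA are shown because they carry this signal, with capitals at nucleotides that had a site in all 4 antibody libraries (8 and 16 nucleotides, those within 5 nt of the snoRNA included).
SNORA73A flank, chr1:28507316-28507365: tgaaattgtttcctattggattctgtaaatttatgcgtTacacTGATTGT
SNORA73B flank, chr1:28508509-28508558: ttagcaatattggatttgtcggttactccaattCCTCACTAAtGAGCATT

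In both flanks the marked nucleotides lay at the end next to the snoRNA, so the margin bears on the result. With exact annotated ends, the sites of the margin passed to SNHG3, and dyskerin against GAR1 was called for SNHG3 (-4.28 ± 1.57, SE, adjusted p = 0.0184). In that fit 3813 of 6495 genes were called, 3595 of them higher and 218 lower, against 107 in all with the margin.

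The spliced exons of SNHG3 had sites in the dyskerin libraries alone. Exon 1 (105 nt) held 81 and 132 cDNAs and exon 2 (33 nt) 20 and 55. No site was listed in either exon in the GAR1 or IgG libraries, and exon 3 (2063 nt) held none in any library. Together exons 1 and 2 came to 59.6 and 99.7 CPM for dyskerin. Over the whole genome the dyskerin libraries listed 902977 and 925145 sites, against 24810 and 53445 for GAR1 and 2747 to 79451 for IgG. In CPM, 91.6% of all genes tested had both dyskerin libraries above both GAR1 libraries. How often the exons of other genes had sites with dyskerin alone was not counted, so this pattern cannot be called particular to SNHG3. The strongest sites of exon 1, at nucleotides 66 and 67 of the gene, held 25 and 21 cDNAs in replicate 1 and 41 and 40 in replicate 2. They lie in a pyrimidine-rich stretch, shown with capitals at the 9 nucleotides that had a site in both dyskerin libraries.
SNHG3 exon 1, chr1:28506025-28506065: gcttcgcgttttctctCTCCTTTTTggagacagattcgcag

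Of the host positions called in both dyskerin libraries, 16 of 44 lay in spliced exons. Of the 16 called in both GAR1 libraries, none did. When SNHG3 was limited to its spliced exons, an alternative chosen after the data had been seen, dyskerin against GAR1 was just short of a call (adjusted p = 0.0505), and its fitted fold change, 8.41, depends on the prior count since GAR1 is at 0. A site is listed only where it passed in its own library, so the absence of a site is not the absence of contact. In the IgG libraries of 8183 and 10701 cDNAs a single cDNA comes to 122 and 93.4 CPM, about as much as or more than the dyskerin level in both exons together. Exonic sites by any SNHG3 transcript made up 54.98% ± 1.09 of the host cDNAs for dyskerin and 21.7% ± 1.09 for GAR1 (SD, n = 2 each). Another transcript has an exon over SNORA73A, so that this share counts the flank of SNORA73A as exonic and is all of the GAR1 value. Antibody and IgG differed by -19.7 points (exact p = 0.457, adjusted p = 0.64), with single cDNAs behind 2 of the IgG libraries.

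**Figure D5:**
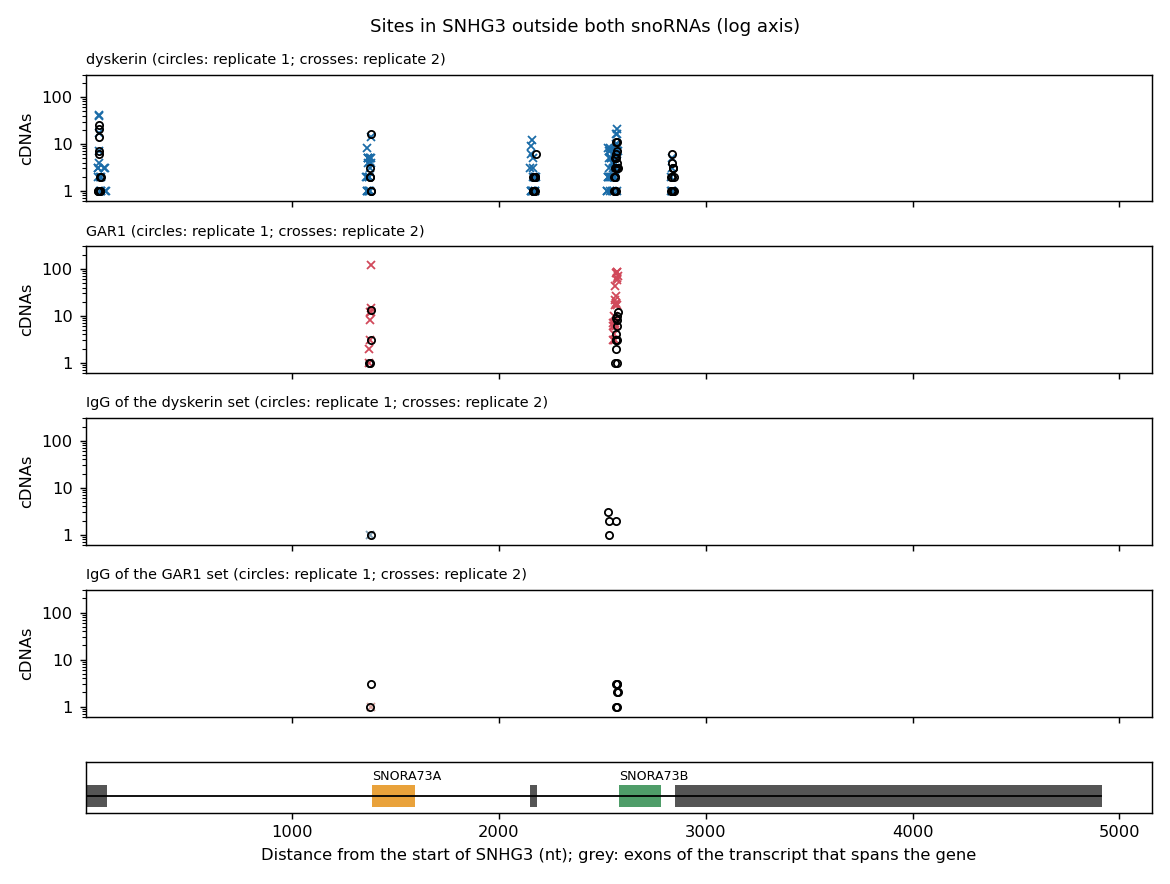
Sites of SNHG3 outside both snoRNAs, with the distance from the start of the gene in nt on the x axis and the cDNAs of each site on a log axis, circles for replicate 1 and crosses for replicate 2, above a map of the gene. Dyskerin has sites in exons 1 and 2, before both snoRNAs and after SNORA73B, whereas the sites of GAR1 lie before the snoRNAs.

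The host cannot be told apart from RCC1 (ENSG00000180198.17, chr1:28505943-28539300, plus strand), the gene of a nucleotide exchange factor of the GTPase RAN, whose annotated body contains all of SNHG3. Of its 14 transcripts, 6 overlap exon 1 of SNHG3 and 6 hold the whole of exon 2, and 7 overlap the start of exon 3 by 28 to 76 nt. In the 28445 nt of RCC1 outside SNHG3 no library had a site. The caller scored sites by gene, and the authors' own labels of sites in this region join RCC1, SNHG3 and the snoRNAs. How the dense snoRNA signal of the same gene bore on calls elsewhere in it was not tested. Past the 3′ end of SNORA73B, 30 and 13 cDNAs lay in the 67 nt before exon 3, in the dyskerin libraries alone. The remaining part of intron 1 held none, and intron 2 upstream of the SNORA73B flank held 14 cDNAs in dyskerin replicate 2 and 3 in a dyskerin IgG library. No library had a site on the opposite strand of SNHG3.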

How the data were processed

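The reads were run by the authors through iMaps, with FastQC 0.11.9 for quality, Cutadapt for adapters and STAR 2.7.0e for end-to-end alignment to GRCh38 with GENCODE 27 and up to 2 mismatches. iCount kept up to 50 alignments of a read and called sites in each library with a half-window of 3 nt, 100 permutations and a false discovery rate of 0.05. The deposited site lists and clusters hold raw counts of cDNAs, not normalized. The Cutadapt version is not given in the sources used here.

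Sites were assigned by strand to GENCODE 44 genes, short RNAs first, with 5 nt upstream, and counts were summed per gene. A gene entered the test with 10 or more counts in 2 or more libraries. It used the quasi-likelihood method of edgeR 4.0.16 (R 4.3.3, TMM, 4 groups in 1 fit, 4 residual degrees of freedom). Adjustment was by Benjamini-Hochberg over all genes, with calls under 0.05. The script was tested on simulated counts of equal totals and, apart from the changed genes, the same composition. That trial therefore does not cover libraries that differ in total and composition as these do. The SE beside edgeR values is the absolute log2 fold change divided by the square root of its F statistic, as edgeR gives none. Beside DESeq2 values it is the standard error of DESeq2. CPM scale cDNAs to a common total of peak cDNAs, without TMM. Shares were compared by exact permutation over 70 arrangements (SciPy 1.17.1), and genome copies were found with BLAST 2.17.0. Alternatives were other scalings, DESeq2 1.42.0, filters, site rules, summing both copies, a replicate block and leaving out each library. Replicates are numbered by the labels, which do not say whether cultures were separate, so p-values measure only the spread between these libraries. No replicates agreed within sampling noise (chi-square per degree of freedom 11.1 to 32.9). Members and lists were chosen with earlier results of these data known. Named genes were the members, RCC1, the 2 of highest mean CPM in each list, and the 3 of most like pattern for each member.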

Additional observations from a re-analysis of the deposited data

How the results depend on the processing

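The lower signal of SNORA73A and SNORA73B in dyskerin than in GAR1 kept its direction under all alternatives run and its call in all but DESeq2 (-0.38 and -0.30) and the removal of either dyskerin library. Leaving out each library gave -6.49 to -4.61 for SNORA73A and -6.37 to -4.58 for SNORA73B. For dyskerin against its IgG the ranges were -3.71 to -0.07 and -4.05 to -0.36, for GAR1 against its IgG -0.19 to 4.44 and -0.37 to 4.23, and for the difference of both comparisons -4.68 to -2.50 and -4.82 to -2.73. For the rest of SNHG3 they were -0.41 to 2.44, 1.75 to 7.33 and -5.70 to -0.82, and -5.44 to -1.38 for dyskerin against GAR1. DESeq2 turned SNORA73A over the dyskerin IgG (0.051), both snoRNAs over the GAR1 IgG (-0.52 and -0.73), the difference of the comparisons for all 3 RNAs (0.57, 0.44 and 0.28) and SNHG3 in dyskerin against GAR1 (1.57). The GAR1 comparison with IgG also turned on totals of peak cDNAs (-0.18 and -0.38), with a minimum of 50 counts (-0.36 and -0.56), with each site counted once (-0.88 and -0.91) and, for SNORA73B, with sites of at least 3 cDNAs (-0.10). Without a filter it was called (3.88 and 3.70), as was the difference of the comparisons (-3.95 and -4.12), and with both copies summed it was called at 3.77. With exact ends, SNHG3 turned over the dyskerin IgG (-0.33) and was called in dyskerin against GAR1 (-4.28), and with spliced exons alone, chosen after seeing the data, it turned to 8.41. The cause of these changes was not tested.

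Counts of called genes moved most. For dyskerin against GAR1, 107 genes were called, against 6015 on totals, 3418 with DESeq2, 468 with no filter, 3378 with the minimum of 50 counts, 3813 with exact ends, 2509 with sites of at least 3 cDNAs, 1760 with each site counted once, and 54 to 3289 without single libraries. For dyskerin against its IgG the count went from 0 to 2, 862, 2 and 1 with no filter, the minimum of 50, sites of at least 3 cDNAs and each site counted once, and stayed at 0 without single libraries. For GAR1 against its IgG it went from 0 to 3, 128, 29, 30 and 1 on totals, with DESeq2, with no filter, with the minimum of 50 and with the copies summed, and to 0 to 733 without single libraries, the highest without GAR1 replicate 1. For the difference of the comparisons it went from 0 to 180, 87, 11 and 135 in the first 4 of these, and to 0 to 93.

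Deviations of same-numbered libraries from their group means correlated at -0.083 to 0.0998 over the genes tested. These values gave no sign of pairing by replicate number, but they cannot decide whether libraries were handled in pairs. With the replicate number as a block, dyskerin against GAR1 gave -5.87 and -5.76 for the snoRNAs and 54 called genes, and no call of a member changed.

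The exact test of the shares can hardly pass after adjustment over 7 in this design, so its p-values say nothing about stability. The smallest unadjusted p, 0.0286, was reached by the part of SNORA73B past its midpoint with exact ends (-17.5 points) and at positions that differ between the copies within 25 nt (-12.7), and with each site counted once by that of SNORA73A (4.88) and by the pair's share of the locus (-10.5). With exact ends the first 10% of SNORA73B (1.64 points), the pair's share of the locus (2.21) and the exonic share (9.22) turned. With sites of 3 or more cDNAs the first 10% of SNORA73A (-1.26) and the exonic share (25.4, over 6 libraries) did. With each site counted once, SNORA73A of the pair (-0.0823), its first 10% (-0.037) and the parts past the midpoint (4.88 and 4.93) did. Without single libraries the shares ran from 3.43 to 5.78 (SNORA73A of the pair), -3.69 to 3.41 and -5.95 to 2.54 (first 10% of each), -6.53 to -1.37 and -14.6 to -9.24 (past the midpoints), -0.854 to -0.347 (pair of the locus) and -35.3 to -5.70 (exonic). Sites of SNHG3 that overlap no other gene could not be tried, because RCC1 covers all of SNHG3. The standard error of SNORA73A over the GAR1 IgG was 0.961, 0.565 without GAR1 replicate 1 and 1.91 without dyskerin replicate 1.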
